A study of Mus musculus with 8 samples.

Results

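De novo lipogenesis builds fatty acids from acetyl-CoA in the cytosol. The 9 genes described here, Acly, Acaca, Acacb, Fasn, Me1, Acss2, Thrsp, Mid1ip1 and Pnpla3, were taken by symbol from the 25010 genes in the deposited table, whatever their values. All 9 were found, and all 9 passed the filter for low values, a mean of at least 10 normalized counts over the livers, as did 15578 genes in all. A normalized count is the number of reads on a gene divided by a size factor for its library.

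The livers came from C57BL/6 mice aged 8 weeks, kept on a chow diet and fasted for the last 4 to 6 h. The 2 WT mice carried both liver X receptors (LXRs), and the 2 LXRDKO mice lacked both, LXRα (gene Nr1h3) and LXRβ (gene Nr1h2), by deletion in the whole body and not in hepatocytes alone. Polyadenylated RNA of the left lobe was sequenced, with 1 library per mouse. The sex of the mice is not given in the sources used here, and P values measure the spread between these livers only.

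In liver, ATP-citrate lyase and acetyl-CoA synthetase supply acetyl-CoA from citrate and acetate, acetyl-CoA carboxylase turns it into malonyl-CoA, and fatty acid synthase condenses malonyl-CoA into palmitate with electrons from NADPH. The pathway is active after carbohydrate feeding and low in fasting. Its genes are classical targets of the transcription factors SREBP-1c and ChREBP, and LXRs are ligand-activated nuclear receptors, bound by oxysterols, that drive the gene of SREBP-1c, Srebf1.

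The lipogenic genes took a smaller share of the liver transcriptome in both LXRDKO livers, and Acacb was the one called by each of the 3 tools run. The 9 genes together took 0.167% and 0.217% of all gene reads in WT against 0.0748% and 0.125% in LXRDKO. The LXRDKO livers did not overlap the WT livers and were lower in 7 of the 9 genes, against 23.0% of all genes tested, and were higher without overlap in 0, against 21.7% of all genes tested. The exceptions were Acss2 and Thrsp, whose groups overlapped. Among these 7, Pnpla3 passed the filter through WT replicate 2 alone, so its LXRDKO mean had to lie lower, and this count is given as a description. The median log2 fold change of the 9 genes, LXRDKO against WT, was −1.02, or −0.94 with Pnpla3 left out, beside −0.0046 for all genes tested. This fold change is a difference of log2(normalized count + 1), a scale on which changes of genes with few counts appear too small.

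How many of these differences passed a test depended on the test. With limma, 1 of the 9 genes, Acacb, was down-regulated at an adjusted P value under 0.05, against 0.186% of all genes tested, and none was up-regulated. At an unadjusted P under 0.05, 6 of the 9 lay lower, against 7.5% of all genes tested, and none lay higher. With DESeq2, the test used in the study, run on the recovered reads, 5 of the 9 genes (Acaca, Acacb, Fasn, Me1 and Mid1ip1) were down-regulated, against 2.03% of the genes it tested. The quasi-likelihood test of edgeR called Acacb alone (adjusted P = 0.0298), where over all 15578 genes tested it called 30 lower and 19 higher. With 2 livers against 2, an exact two-sided permutation test of a single gene cannot go below P = 0.33, so each call rests on the spread these tools pool across genes.

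**Figure D1:**
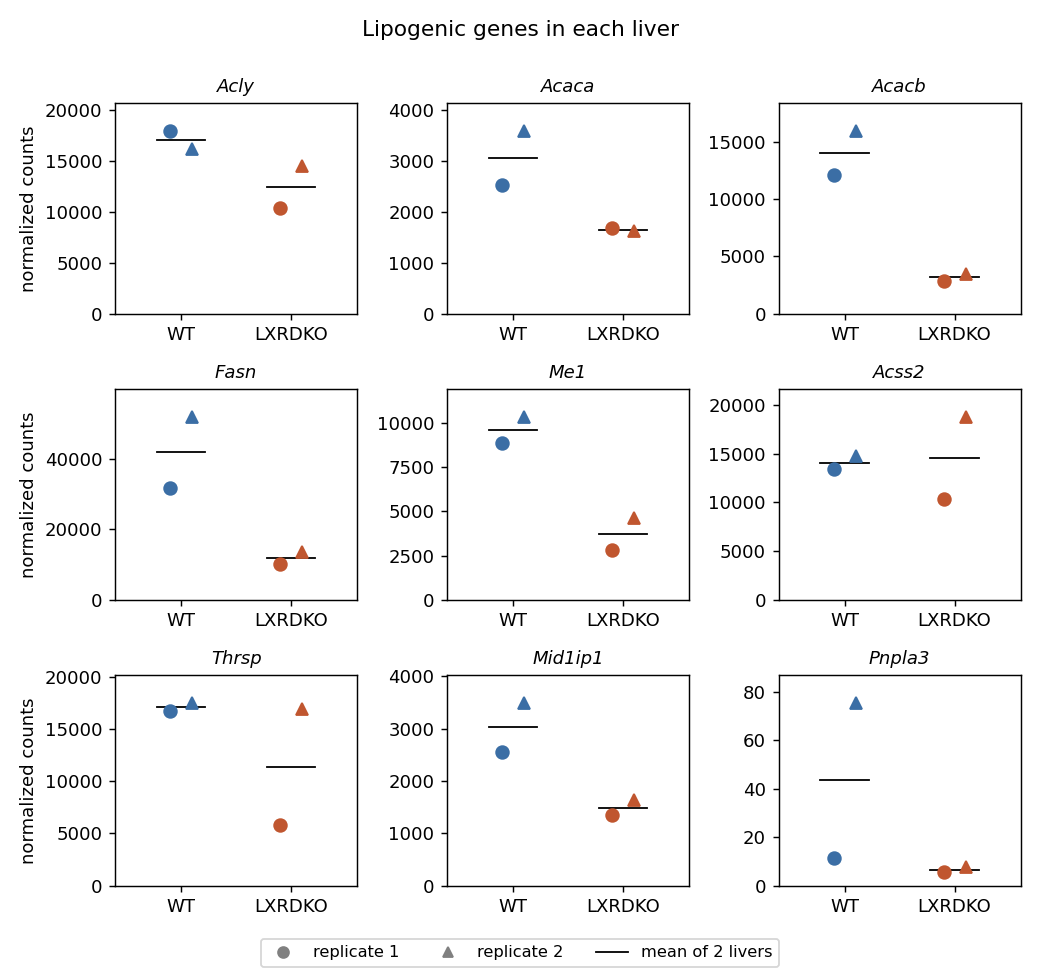
Normalized counts (y axis, from 0, with a scale of its own for each gene) of the 9 lipogenic genes in each of the 2 WT and 2 LXRDKO livers (x axis); circles are replicate 1, triangles replicate 2 and bars the mean of 2 livers. The LXRDKO livers lie below the WT livers in 7 genes, overlap them in Acss2 and Thrsp, and differ most from each other, as a ratio, in Thrsp (5803 and 16919).

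Promoter sequences are shown for 4 genes that span the range of behavior: Acly and Fasn, which lay lower in both LXRDKO livers, Thrsp, in which the LXRDKO livers split, and Acss2, in which they lay on either side of WT. Each run is the 250 bases before the RefSeq start site on GRCm38.p6, read 5′ to 3′ on the strand of the gene. Capitals mark the Y box CCAAT, the core of the sites bound by NF-Y, and the GC box GGGCGG, the core of the sites bound by Sp1, in either orientation (ATTGG and CCGCCC on the opposite strand).
Acly, minus strand, chr11:100528001-100528250: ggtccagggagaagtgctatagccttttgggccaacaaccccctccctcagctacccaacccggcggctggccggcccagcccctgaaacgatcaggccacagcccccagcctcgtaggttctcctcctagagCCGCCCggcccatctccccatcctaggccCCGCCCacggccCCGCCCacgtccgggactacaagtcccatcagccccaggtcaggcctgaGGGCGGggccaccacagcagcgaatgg
Fasn, minus strand, chr11:120824548-120824797: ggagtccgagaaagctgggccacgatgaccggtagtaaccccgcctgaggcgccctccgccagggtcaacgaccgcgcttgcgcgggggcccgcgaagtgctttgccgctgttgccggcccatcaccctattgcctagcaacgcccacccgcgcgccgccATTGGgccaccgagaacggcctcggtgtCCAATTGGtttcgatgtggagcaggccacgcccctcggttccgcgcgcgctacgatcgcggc
Thrsp, minus strand, chr7:97417551-97417800: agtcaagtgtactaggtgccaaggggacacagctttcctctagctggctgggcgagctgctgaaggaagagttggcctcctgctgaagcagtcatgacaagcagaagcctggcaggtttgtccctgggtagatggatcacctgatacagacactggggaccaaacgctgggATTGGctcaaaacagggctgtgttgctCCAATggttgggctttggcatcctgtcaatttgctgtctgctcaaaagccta
Acss2, plus strand, chr2:155517793-155518042: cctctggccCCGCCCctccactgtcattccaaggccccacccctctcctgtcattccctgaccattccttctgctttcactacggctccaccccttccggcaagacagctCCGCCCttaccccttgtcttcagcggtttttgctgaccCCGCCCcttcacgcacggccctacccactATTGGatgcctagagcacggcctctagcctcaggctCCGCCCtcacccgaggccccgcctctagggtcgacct
The Fasn run holds 3 Y boxes, of which the last 2 overlap on opposite strands, and the Thrsp run holds 2. The Acss2 run holds 1 Y box and 4 GC boxes, and the Acly run 4 GC boxes. All 9 genes matched a RefSeq promoter, with 10 windows because Me1 has 2. Over windows from 250 bases before to 50 after the start, searched on both strands, 7 of the 9 genes held a Y box, which 37.4% of 32851 mouse promoters of that length hold, and 5 held a GC box, which 35.7% hold. None of the 9 held the sterol response element TCACNCCAC (1.24% of promoters), the E-box CACGTG (7.15%) or the LXR-type direct repeat of AGGTCA with a spacer of 4 bases and at most 2 mismatches (3.02%). The sterol response element and E-box were searched without mismatches and no motif outside these windows, so less exact or more distant sites were not covered. The windows of Acaca and Acacb lie 65766 and 18983 bases from the gene starts in GENCODE, the second window of Me1 8676 bases and that of Mid1ip1 2352 bases, so they may stand for 1 of several promoters. Me1 counts among the genes with a Y box through its second window alone, and Acacb through its window inside the gene. Acly counts through a match at position 38 after the start, outside the run printed above.

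Of the 2 enzymes that supply acetyl-CoA, Acly lay lower in both LXRDKO livers and Acss2 in 1 of them. Acly, ATP-citrate lyase, on chromosome 11 from 100476353 to 100528000, measured 17991 and 16181 normalized counts in WT against 10355 and 14530 in LXRDKO. The groups did not overlap, but the higher LXRDKO liver reached 89.8% of the lower WT liver. The log2 fold change was −0.48 (standard error, SE, 0.18, adjusted P = 0.341 by limma), and DESeq2 gave an adjusted P of 0.229. Acss2, the cytosolic acetyl-CoA synthetase, which uses acetate and is a classical SREBP target, lies on chromosome 2 from 155517948 to 155585724. It measured 13420 and 14759 normalized counts in WT against 10314 and 18819 in LXRDKO, so that the WT values lay between those of the LXRDKO livers. The fold change of Acss2 on the log2 scale was −0.01 (SE 0.28, adjusted P = 0.989 by limma) with a 95% interval from −0.70 to 0.67, and its sign turned under other scalings and in DESeq2 and edgeR. An interval of this width leaves room for a change of the size seen in Acly. The Acss2 locus overlaps Ggt7, Gss and Acss2os on the opposite strand, and the strand setting of the counting is not given in the sources used here, so reads of these genes could not be told apart with certainty.

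Both acetyl-CoA carboxylases, which make malonyl-CoA, lay lower in both LXRDKO livers, and Acacb was the gene that limma called. Acaca encodes the cytosolic form whose malonyl-CoA feeds fatty acid synthase, and Acacb the form at the mitochondrial surface, whose malonyl-CoA inhibits carnitine palmitoyltransferase and with it fatty acid import for oxidation. Acacb, on chromosome 5 from 114146535 to 114250761, measured 12108 and 15991 normalized counts in WT against 2822 and 3501 in LXRDKO, a mean of 22.5% of WT. The LXRDKO livers lay far below the WT livers and close to each other. Acacb fell by 2.15 on the log2 scale (SE 0.17, adjusted P = 0.0255 by limma and 5.26e-26 by DESeq2). Its call was lost without LXRDKO replicate 1 (adjusted P = 0.146) and without LXRDKO replicate 2 (adjusted P = 0.0962), at log2 fold changes of −1.99 and −2.30, and in limma without the trend (adjusted P = 0.212).

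Acaca, on chromosome 11 from 84129672 to 84401651, measured 2530 and 3601 normalized counts in WT against 1687 and 1624 in LXRDKO. Both LXRDKO livers lay below the WT livers, at a mean of 54.0% of WT, with a log2 fold change of −0.87 (SE 0.18, adjusted P = 0.145 by limma). DESeq2 called it (adjusted P = 0.000738). Gm11437 on the opposite strand overlaps Acaca, with the same limit on strand as for Acss2. The log2 fold change of Acaca exceeded that of Acacb by 1.28, a difference given as a description without a test. Per kb of merged exons, the level of Acacb was 8.48 and 7.87 times that of Acaca in WT against 2.97 and 3.82 times in LXRDKO, so Acacb stayed the higher of the pair in every liver while the ratio was lower in both LXRDKO livers. The ratios depend on the length used: per kb of coding sequence they were 4.63 and 4.29 in WT and 1.62 and 2.09 in LXRDKO. The transcripts of the pair share 0 words of 50 bases, the read length, so no read without mismatches fits both.

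Of 2 small partners of acetyl-CoA carboxylase, Mid1ip1 lay lower in both LXRDKO livers and Thrsp in 1 of them. Mid1ip1 (MIG12) and Thrsp (Spot 14) are related proteins; MIG12 binds acetyl-CoA carboxylase and promotes its polymerization, and Thrsp, a thyroid hormone-responsive gene, pairs with MIG12 and tempers this. Mid1ip1, on chromosome X from 10715013 to 10719690, measured 2562 and 3500 normalized counts in WT against 1342 and 1629 in LXRDKO. It lay at a mean of 49.0% of WT without overlap, with a log2 fold change of −1.02 (SE 0.18, adjusted P = 0.124 by limma and 5.53e-05 by DESeq2). Gm14493 on the opposite strand overlaps it, with the same limit on strand as for Acss2.

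Thrsp, on chromosome 7 from 97412938 to 97417730, measured 16713 and 17542 normalized counts in WT against 5803 and 16919 in LXRDKO. LXRDKO replicate 1 lay far below WT while LXRDKO replicate 2 lay between the WT livers, and the 2 LXRDKO livers differed by 2.92-fold where the WT livers differed by 1.05-fold. The log2 fold change of Thrsp was −0.79 (SE 0.47, adjusted P = 0.550 by limma), but −0.017 when LXRDKO replicate 1 was left out and −1.56 when LXRDKO replicate 2 was. The fold change of Thrsp thus rests on 1 liver, LXRDKO replicate 1. Per kb of merged exons, Thrsp stood at 6.34 and 4.87 times Mid1ip1 in WT and at 4.20 and 10.1 times in LXRDKO, so the LXRDKO livers lay on either side of the WT livers.

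Fasn, fatty acid synthase, showed the next largest difference after Acacb among the genes with high counts. On chromosome 11 from 120805846 to 120824547, it measured 31771 and 51989 normalized counts in WT against 10096 and 13651 in LXRDKO. The higher LXRDKO liver reached 43.0% of the lower WT liver, and the mean was 28.4% of WT. The log2 fold change of Fasn was −1.79 (SE 0.26, adjusted P = 0.0893 by limma), which did not pass the threshold, while DESeq2 gave an adjusted P of 5.79e-11. The WT livers themselves differed by 1.64-fold. Without WT replicate 1 or without WT replicate 2, limma called Fasn (adjusted P = 0.00482 and 0.0250), and without LXRDKO replicate 1 or LXRDKO replicate 2 it did not (adjusted P = 0.287 and 0.240).

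Me1, the cytosolic malic enzyme, which makes NADPH for fatty acid synthase, also lay lower in both LXRDKO livers. On chromosome 9 from 86581371 to 86695953, it measured 8849 and 10371 normalized counts in WT against 2787 and 4655 in LXRDKO. Both LXRDKO livers lay well below WT, at a mean of 38.7% of WT, and LXRDKO replicate 2 was the higher by 1.67-fold. The log2 fold change of Me1 was −1.41 (SE 0.24, adjusted P = 0.120 by limma and 1.76e-06 by DESeq2).

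Pnpla3, a lipid droplet protein of the patatin-like phospholipase family and a known SREBP target, had few reads. On chromosome 15 from 84167837 to 84187236, it measured 11.4 and 75.5 normalized counts in WT against 5.70 and 7.50 in LXRDKO, from 10, 89, 6 and 7 reads. WT replicate 2 stood alone, and WT replicate 1 lay nearer the LXRDKO livers than the other WT liver. The log2 fold change was −2.03 (SE 0.88, adjusted P = 0.404 by limma and 0.118 by DESeq2), and it ran from −3.34 to −0.72 as each liver was left out in turn. It was called only without WT replicate 1 (adjusted P = 0.0467). This fold change rests on 1 liver, WT replicate 2.

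**Figure D2:**
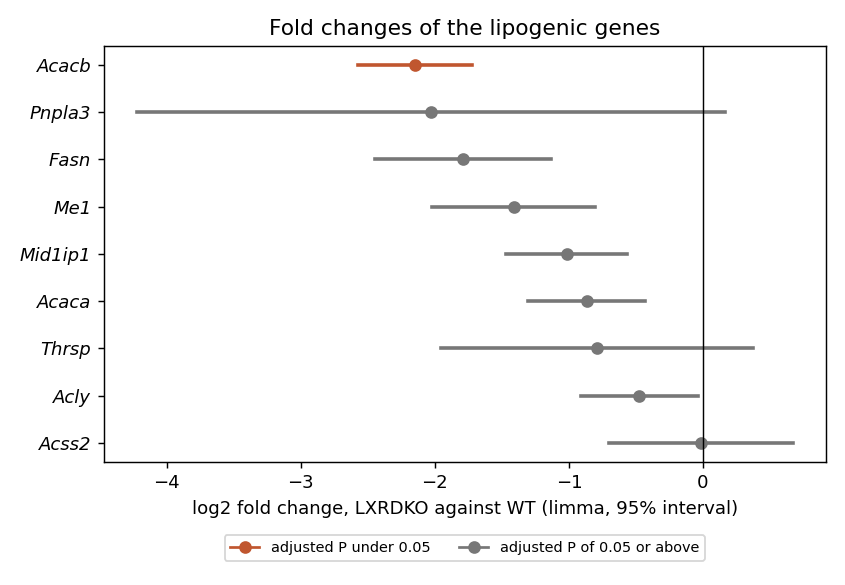
Log2 fold change, LXRDKO against WT (x axis), of each lipogenic gene (y axis) on the log2(normalized count + 1) scale; points are limma estimates from 2 against 2 livers, lines their 95% intervals, and the gene with an adjusted P under 0.05 is in red. Acacb (−2.15) is the gene called, the intervals of Thrsp, Pnpla3 and Acss2 include 0, and Acss2 lies at −0.01.

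Levels of the 9 genes spanned a wide range in WT liver. Per kb of merged exons, the WT mean was 7824 normalized counts for Thrsp, 3826 for Fasn, 3237 for Acly and 2497 for Me1. Acacb (1459), Mid1ip1 (1424) and Acss2 (1386) formed a middle group. Acaca stood at 180 and Pnpla3 at 28.1. In this order the WT ranges of Fasn and Acly overlapped, as did those of Acacb and Mid1ip1 and of Mid1ip1 and Acss2, while the other neighbors were apart in the 2 WT livers. The order among the middle genes depends on the length used: per kb of coding sequence Acss2 (6174) came second to Thrsp (38062), while Acaca (429) and Pnpla3 (37.7) stayed the lowest. In LXRDKO liver the mean per kb of merged exons was 5190 for Thrsp, 2357 for Acly, 1433 for Acss2, 1085 for Fasn, 967 for Me1, 698 for Mid1ip1 and 328 for Acacb, so Acly and Acss2 stood above Fasn there. For Acss2 this too depends on the length used. Per kb of coding sequence its mean was above that of Fasn in WT (6174 against 5575) and in LXRDKO (6383 against 1581). The WT livers lay on either side by that length, with Fasn at 0.719 and 1.07 times Acss2.

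The livers of 1 genotype also differed together. WT replicate 2 had more counts than WT replicate 1 in 8 of the 9 genes, where 49.5% of all genes tested did, and LXRDKO replicate 2 had more than LXRDKO replicate 1 in 8 of the 9, where 50.3% of all genes tested did. The exceptions were Acly in WT and Acaca in LXRDKO. Genes that respond to feeding and fasting also differed within the genotypes. Pdk4, which restrains pyruvate oxidation in fasting, measured 212 and 525 normalized counts in WT against 115 and 731 in LXRDKO, and Fgf21, a fasting hormone, measured 67.3 and 698 in WT against 40.8 and 242 in LXRDKO. Igfbp1, which insulin represses, measured 1874 and 4606 in WT against 1831 and 4694 in LXRDKO. All 3 were higher in replicate 2 of both genotypes, and were picked after their values were seen. The stated fast of 4 to 6 h is not given per mouse, and its part in these differences was not tested.

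Genes around the pathway were described by 8 lists. Of all genes tested, 23.0% lay lower and 21.7% higher without overlap, and these shares stand beside the counts of every list. At an unadjusted limma P under 0.05, 1169 genes lay lower and 899 higher of 15578, and DESeq2 called 321 lower and 246 higher. The supply of citrate, acetyl-CoA and NADPH came first. Of its 17 genes, 6 lay lower without overlap and 1 higher, the median log2 fold change was −0.09, and 0 were called by limma, DESeq2 or edgeR. At an unadjusted P under 0.05, 1 lay lower and 0 higher. Citrate synthase Cs, with a log2 fold change of −0.24, measured 8566 and 8372 normalized counts in WT against 7044 and 7271 in LXRDKO (adjusted P = 0.318 by limma). Idh1, cytosolic isocitrate dehydrogenase, which makes NADPH as Me1 does, measured 27676 and 29344 in WT against 18903 and 26571 in LXRDKO, for a log2 fold change of −0.35 (adjusted P = 0.476 by limma). Dlat of the pyruvate dehydrogenase complex (−0.30) and Rpia of the pentose phosphate pathway (−0.61) did not pass either.

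Genes for the control of acetyl-CoA carboxylase by AMP-activated protein kinase (AMPK) showed no call in RNA, and kinase activity was not measured. Of 13 genes, 3 lay lower and 3 higher without overlap, with a median of −0.01. Limma, DESeq2 and edgeR called 0, while 2 lay lower and 1 higher at an unadjusted P under 0.05. Prkab2, an AMPK β subunit, measured 145 and 159 normalized counts in WT against 242 and 230 in LXRDKO, for a log2 fold change of 0.64 (adjusted P = 0.245 by limma). The other β subunit, Prkab1, had a log2 fold change of 0.21, the catalytic subunit Prkaa2 one of −0.27, and Mlycd, malonyl-CoA decarboxylase, which removes the product of the carboxylases, one of −0.34. Biotin, the cofactor of both carboxylases, gave a second list of 8 genes for its handling and for the other biotin enzymes. In it 2 lay lower and 1 higher without overlap (median −0.05), 0 were called by limma, DESeq2 or edgeR, and 1 lay lower at an unadjusted P under 0.05. Slc5a6, a biotin transporter, had a log2 fold change of −0.38, Hlcs, which attaches biotin to the carboxylases, one of −0.39, and Mccc1 one of 0.14.

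Relatives of the 9 genes lay in both directions. Of 10 paralogs listed, 9 were in the table and 7 passed the filter. Of these, 3 lay lower and 3 higher without overlap, with a median of −0.17, and limma, DESeq2 and edgeR called 0, with 2 lower and 1 higher at an unadjusted P under 0.05. Acss1, the mitochondrial acetyl-CoA synthetase, measured 20.5 and 18.7 normalized counts in WT against 65.5 and 42.9 in LXRDKO, for a log2 fold change of 1.39 (adjusted P = 0.218 by limma). The mitochondrial malic enzyme Me2 had one of −0.60, the lipase Pnpla2 one of 0.35 and Pnpla7 one of −0.25. Mitochondrial fatty acid synthesis, a separate pathway that makes the lipoic acid precursor, had 7 genes tested of 9 listed, of which 0 lay lower and 3 higher without overlap (Cbr4 0.19, Aasdhppt 0.08 and Ndufab1 0.05), and 0 were called by limma, DESeq2 or edgeR or had an unadjusted P under 0.05. The median of that list was 0.05.

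Among 18 transcription factors and SREBP processing genes, 8 lay lower and 2 higher without overlap, and the median log2 fold change was −0.13. At an unadjusted limma P under 0.05, 4 lay lower and 0 higher. Srebf1, which encodes SREBP-1c, was the one called by limma, DESeq2 and edgeR. It measured 22205 and 24071 normalized counts in WT against 3118 and 5287 in LXRDKO, and fell by 2.51 on the log2 scale (SE 0.24, adjusted P = 0.0407 by limma). Its call was lost without LXRDKO replicate 1 (adjusted P = 0.0715), without trend (0.219) and among genes whose mean reached 50 normalized counts (0.054). Insig1, a sterol-regulated anchor of the SREBP complex, measured 12462 and 14165 in WT against 4167 and 9598 in LXRDKO, for a log2 fold change of −1.07 (adjusted P = 0.318 by limma). As in Thrsp, LXRDKO replicate 1 was the lower by a wide margin. Scap, the SREBP escort, had a log2 fold change of −0.38 and the SREBP protease Mbtps1 one of −0.22. Mlxipl, which encodes ChREBP and is named after its values were seen, measured 30720 and 28484 normalized counts in WT against 31377 and 26482 in LXRDKO, with overlap, and a log2 fold change of −0.04 (adjusted P = 0.938 by limma).

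The steps that follow palmitate, desaturation, elongation and glycerolipid assembly, had the lowest median of the 8 lists. Of 16 genes, 10 lay lower and 2 higher without overlap, and the median log2 fold change was −0.58. At an unadjusted limma P under 0.05, 8 lay lower and 1 higher. Limma called 1 lower, Gpam, the first acyltransferase of glycerolipid synthesis, which measured 13281 and 15190 normalized counts in WT against 6476 and 7061 in LXRDKO and fell by 1.07 on the log2 scale (SE 0.11, adjusted P = 0.0417 by limma). Gpam missed the threshold without either LXRDKO liver (0.199 and 0.183), without trend (0.219), with library totals (0.0518) and among genes whose mean reached 50 normalized counts (0.054). DESeq2 called 5 lower (Scd1, Elovl5, Fads2, Gpam and Acsl5) and 1 higher (Lpin1), and edgeR called Gpam. Fads2 and Acsl5 are named after their values were seen. Scd1, the main hepatic stearoyl-CoA desaturase, had a log2 fold change of −4.15 (adjusted P = 0.0615 by limma), and the elongase Elovl5 one of −1.35 (adjusted P = 0.0893 by limma). Lpin1, a phosphatidate phosphatase, lay in the other direction, with 15010 and 8975 normalized counts in WT against 47130 and 51115 in LXRDKO, a log2 fold change of 2.08 (adjusted P = 0.0545 by limma and 9.69e-16 by DESeq2).

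Genes that respond to feeding and fasting lay on both sides of 0. Of 12 genes, 3 lay lower and 3 higher without overlap, and the median log2 fold change was −0.03, limma and edgeR called 0, and 2 lay lower and 2 higher at an unadjusted P under 0.05. DESeq2 called 2 lower, among them Pklr, the liver pyruvate kinase, with 20696 and 14504 normalized counts in WT against 10483 and 9120 in LXRDKO (log2 fold change −0.83, limma). Irs2 (0.31) and Ppargc1a (0.39), both of which rise in fasting, lay higher without overlap and were not called.

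**Figure D3:**
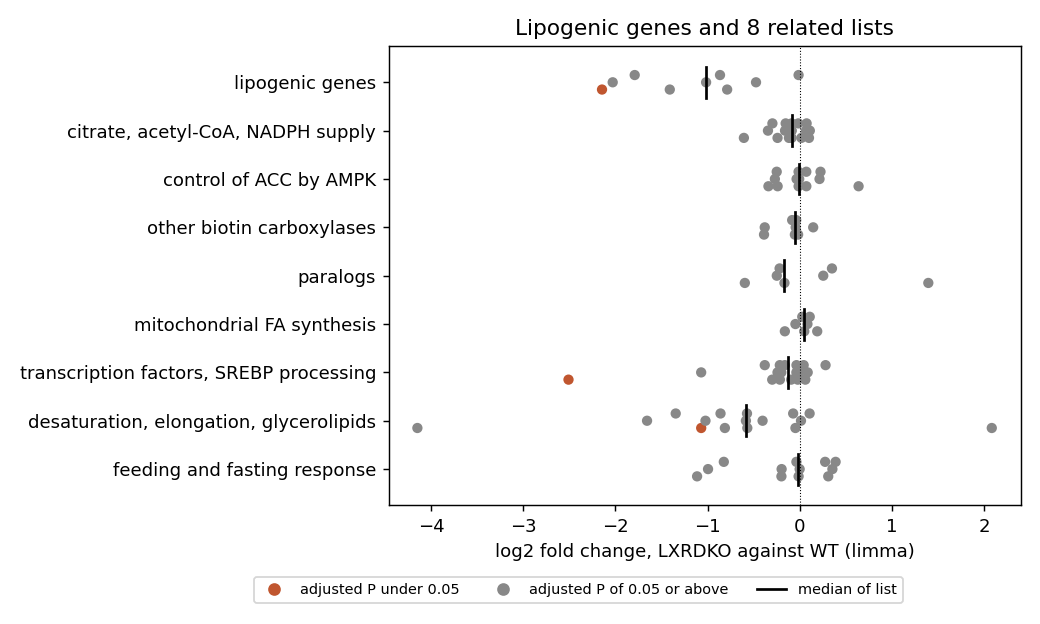
Log2 fold change, LXRDKO against WT (x axis, limma), of each tested gene (points) in the lipogenic set and 8 related lists (y axis); black bars are list medians, and red points have an adjusted P under 0.05. The median of the lipogenic genes is −1.02 and that of desaturation, elongation and glycerolipid genes −0.58, while the other 7 lists have medians between −0.17 and 0.05.

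Position on the chromosome was examined with the nearest tested gene on each side of each lipogenic gene. Of these 18 neighbors, 3 lay lower and 5 higher without overlap, against 23.0% and 21.7% of all genes tested. Their log2 fold changes ran from −0.78 to 2.11 with a median of −0.03. Limma called 0 of them, with 5 at an unadjusted P under 0.05, where 1169 genes lay lower and 899 higher of 15578 tested. Over all genes DESeq2 called 321 lower and 246 higher, and of the 18 it called 3, which are named after their values were seen. These were Ccdc57, Tspan7 and Scube1. Ccdc57 (log2 fold change −0.78) lay 1982 bases from Fasn on the same strand. Tspan7 (−0.73) lay 118408 bases from Mid1ip1, and Scube1 (2.11) lay 442816 bases from Pnpla3.

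The 5 other genes whose 4 values lay closest to the mean profile of the 9 genes, by the root mean square difference of log2 values centered on each gene over the 4 livers, were Meiob (0.041), Cd36 (0.044), Hunk (0.057), Serpina3f (0.058) and Ctsw (0.089). Among the 9 genes themselves, Mid1ip1 lay closest to the mean profile (0.128) and Me1 next (0.179), and Pnpla3 lay farthest (0.852). Cd36, a fatty acid transporter, measured 2727 and 3772 normalized counts in WT against 1130 and 1761 in LXRDKO, for a log2 fold change of −1.18 (adjusted P = 0.155 by limma). With 4 livers, such likeness is a description only.

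Checks of the labels and of the tissue were as follows. Nr1h3 fell by 1.65 and Nr1h2 fell by 1.66 on the log2 scale (adjusted P = 0.0147 for both by limma, lost without either LXRDKO liver and without trend), and 31.9% and 31.6% of their WT counts remained in LXRDKO, where counts are per gene and not per deleted exon. Libraries held from 55772659 to 72842744 reads on genes. In bulk liver, fewer cells of a type and less RNA per cell cannot be told apart. Beside the marker counts below, 23.0% of all genes tested lay lower and 21.7% higher without overlap. Hepatocyte markers, 6 of 6 detected, summed to between 6165086 and 7416484 normalized counts in every liver, most of it Alb, and 1 marker lay lower and 2 higher in LXRDKO without overlap. Of 7 adipocyte markers, fat tissue being another site of lipogenesis, 5 were in the table; Adipoq, Retn and Plin1 had at most 3 reads in each liver, and the 5 summed to 3264 and 2414 in WT and 1793 and 2144 in LXRDKO, nearly all of it Lipe, which other tissues also express. Kupffer cell markers were lower in LXRDKO, 6 of 6 without overlap and 3 called by limma, with sums of 7892 and 8907 in WT and 1262 and 715 in LXRDKO. Cholangiocyte markers were higher in 5 of 5 without overlap, with sums of 651 and 692 against 914 and 1127. Stellate cell sums were 10128 and 11271 in WT against 14725 and 17021 in LXRDKO, with 3 of 5 higher without overlap, and endothelial sums 9182 and 8186 against 6901 and 5277, with 3 of 5 lower and 1 called by limma. Erythroid markers overlapped, with sums between 8301 and 10353, and the 1 acinar marker of 4 in the table, Cela2a, stayed at or below 28.5. The part of these cell types in the lipogenic values was not tested.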

How the data were processed

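Polyadenylated RNA of 4 livers was made into stranded libraries and read from 1 end over 50 bp. The authors aligned the reads to mm10 with STAR (2.6.0c) and normalized counts with DESeq2. The tool, annotation and strand setting of the counting are not given in the sources used here. The deposited signal is 1 normalized count per gene and liver. All values (100%) were whole multiples of 1 read in their library, within 0.1 read, so reads were recovered.

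Genes were matched to GENCODE M21 on GRCm38 by Ensembl identifier (24987 of 25010). Log2(normalized count + 1) was compared with limma 3.58.1 in R 4.3.3, with a trend and without a block, keeping genes whose mean reached 10 normalized counts. Benjamini-Hochberg adjustment ran over all 15578 of them. DESeq2 1.42.0 and edgeR 4.0.16 served as alternatives on the recovered reads. The further alternatives were a pseudocount of 0.5 or 8, all genes or those with a mean from 50 up, scaling to the library total or upper quartile, limma without trend, a replicate block, and each liver left out. The fits were tested on simulated data.

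The members and the gene lists were chosen with earlier results of these data known. Named were all members and the deleted receptors, up to 4 non-overlapping genes of each list with the smallest P values, and the 5 genes nearest the mean profile. Genes outside this rule are said to be so. The values of 1 gene that the rule names are not reported here. Marker lists are given in sums. The 4 ATAC-Seq samples were not analysed here.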

Additional observations from a re-analysis of the deposited data

How the results depend on the processing

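Of the 9 lipogenic genes, limma called 1 lower, DESeq2 5, the fit with the replicate block 4 (Acacb, Fasn, Me1 and Mid1ip1), and limma without trend 0. Leaving out either WT liver gave more calls than with every liver kept, both among the 9 genes and over all genes. Leaving out either LXRDKO liver gave fewer of both, where the lone liver is assumed to vary like the WT livers. Acacb was called under all alternatives except limma without trend (adjusted P = 0.212) and the omission of either LXRDKO liver. Over all genes, 29 were lower and 21 higher. These counts were 15 and 10 when the mean had to reach 50 normalized counts, 1 and 0 without trend, 321 and 246 with DESeq2, 55 and 35 with the block, and 2 to 128 and 0 to 137 with 1 liver left out, and upper-quartile scaling gave 35 higher. At an unadjusted limma P under 0.05, 899 genes lay higher. The median of the 9 genes ran from −1.56 to −0.75 with 1 liver left out. Acss2 turned to 0.0399 with library totals, 0.0234 with upper-quartile scaling, 0.0479 with DESeq2 and 0.0564 with edgeR, and ran from −0.45 to 0.42 with 1 liver left out; these alternatives moved no other of the 9 across 0. Deviations of same-numbered livers correlated at 0.0031 across genes. A value over all genes cannot show whether the replicate numbers pair the mice, since a factor acting on few genes would barely move it. A mean of at least 50 leaves out Pnpla3. The causes of these changes were not tested, and 2 livers per genotype limit every call.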
